A study of Mus musculus with 18 samples.

Results

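Wide Polycomb domains were taken from the H3K27me3 peak list of control mouse embryonic fibroblasts as the peaks on chromosomes 1 to 19 that span at least 8000 bases. There were 503 of them among 34064 autosomal H3K27me3 peaks of that library, 1.48% of the peaks, and together they covered 5.48 Mb of the 66.1 Mb under the mark. A domain that shared at least 1 base with an H3K4me3 peak of the same cells was put in the class with H3K4me3, and the others in the class without it. The class with H3K4me3 held 160 domains and the class without it 343. The members were thus chosen by width and the classes by H3K4me3 overlap, both measured in the control lists, so both are given as a description only.

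H3K27me3 is laid down by Polycomb repressive complex 2, whose catalytic subunit is EZH1 or EZH2, and is read by Polycomb repressive complex 1, whose subunits bind the mark and compact the chromatin. In fibroblasts, as in other differentiated cells, long stretches of the mark are known from genes that direct other cell lineages and from the Hox clusters, where the silent part of a cluster carries it. H3K4me3 is placed at promoters with CpG islands, and its overlap with H3K27me3 is called bivalent chromatin, although an overlap of peaks from many cells does not show both marks on the same nucleosome or in the same cell.

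All cells had a mixed B6;129 background and a conditional Rb allele. Rb encodes the retinoblastoma protein, a tumour suppressor that restrains entry into the cell cycle. Cre cells were infected with adenovirus that delivers the Cre recombinase, meant to delete the allele, and GFP cells with adenovirus that delivers green fluorescent protein and leaves it in place. Both were then grown for at most 3 passages, without the reprogramming factors given to other samples of the series. Chromatin immunoprecipitation gave 1 library per mark and condition for H3K27me3, H3K4me3, acetylated H3 (H3Ac, found at active promoters and enhancers) and H3K9me3 (found in heterochromatin). The titles label each of these libraries biological replicate 3. The histone input library is labelled biological replicate 1 for GFP and 3 for Cre cells. With single libraries, nothing that follows could be set against the spread between replicates, and no test was run. The labels do not say whether the Cre and GFP cells came from the same embryos. Neither the deletion of Rb nor the fibroblast identity was checked here.

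On the autosomes the H3K27me3 lists held 29328 peaks in Cre and 34064 in GFP cells, and the H3K4me3 lists 21850 and 22967. For H3Ac there were 41827 in Cre and 47904 in GFP cells, and for H3K9me3 3516 and 9574. The number of reads behind each list is unknown, so that depth and the conditions cannot be told apart in any difference between lists. Domains are regions of 1 library pair, not replicates of a condition. Intervals in parentheses after a share are exact (Clopper-Pearson) 95% intervals, which cover counting error only and take neighbouring domains as independent, which they are not. Positions follow build NCBIM37 with the first base of a chromosome as 1, and domains are named by position alone. Scores are the authors' own peak scores.

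Domains with H3K4me3 had a median width of 10238.5 bases (quartiles 8975 and 12576) and domains without it 9880 (quartiles 8834 and 11719). The distributions overlapped over most of their range, and the 95% intervals of the medians, 9883 to 10910 and 9467 to 10270, overlapped too. The classes differed more at the upper end: of the domains of at least 12000 bases 39.0% (30.4 to 48.2) carried H3K4me3, of those between 10000 and 12000 bases 31.8%, and of those between 8000 and 10000 bases 28.3% (22.8 to 34.3). The share also went up with width among narrower peaks, 3.71% below 1000 bases, 12.95% between 2000 and 4000 and 23.8% between 6000 and 8000, against 8.39% of all autosomal H3K27me3 peaks. A wider peak has more room for an overlap, and how much of this order that accounts for was not tested.

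**Figure D1:**
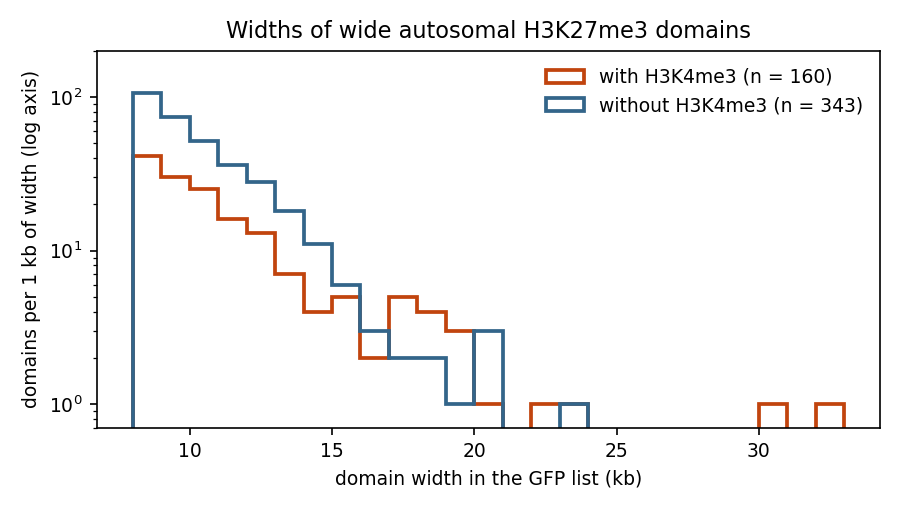
Number of wide autosomal H3K27me3 domains of GFP cells per 1 kb of width (log axis), for the 160 domains with an H3K4me3 peak and the 343 without. Both classes are most numerous near the minimum of 8000 bases, and the 2 widest domains, of 32182 and 30285 bases, carry H3K4me3.

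The members just inside the width limit spanned 8002, 8004, 8005, 8006 and 8006 bases, and the widest peaks just outside it 7984, 7975, 7973, 7967 and 7964 bases. Cover by Cre peaks was 28.2%, 97.2%, 86.4%, 100% and 85.2% in these members and between 85.8% and 99.7% in the peaks outside. The rank correlation of score and width was 0.0084 over the 503 domains, all from the same library. The median H3K27me3 score was 2052 in the class with H3K4me3 and 1523 in the class without it, against 132.1 over all autosomal peaks.

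The widest domain lay at chr11:96023454-96055635, spanned 32182 bases, scored 2174 and held 2 H3K4me3 peaks. In Cre cells 1 H3K27me3 peak of 36690 bases covered all of it. The second, at chr1:63289424-63319708, spanned 30285 bases and held 1 weak H3K4me3 peak with a score of 88.5, which took up 3.31% of its length. A pair of Cre peaks covered 99.96% of it. The third, at chr2:105492027-105515027, held 5 H3K4me3 peaks that took up 23.3% of its 23001 bases, and Cre peaks covered 96.5% of it. The widest domain without H3K4me3 lay at chr2:147846319-147869681, spanned 23363 bases and was covered whole by a Cre peak of 24566 bases. It did overlap an H3K4me3 peak of the Cre list. The next, at chr17:25430716-25451511, was 20796 bases in GFP cells, whereas 5 Cre peaks, the widest of 9025 bases, covered 91.6% of it.

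The comparison of Cre with GFP cells asks how far the domains were found again after delivery of Cre. Nearly all were: 502 of the 503 domains overlapped a Cre H3K27me3 peak, where 68.3% of all autosomal GFP peaks did, and 501 had at least 50% of their bases covered, where 60.5% of all peaks did. In all, Cre peaks covered 94.9% of the bases of the domains, 96.3% in the class with H3K4me3 and 94.2% in the class without it. At least 80% of the bases were covered in 153 of 160 domains with H3K4me3 and 321 of 343 without, where 45.3% of all autosomal peaks reached this. Cover went up with width among narrower peaks as well.

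Median cover was slightly higher in the class with H3K4me3. A domain with H3K4me3 had a median of 99.5% of its bases under Cre H3K27me3 peaks (quartiles 95.8% and 100%), and a domain without it 97.9% (quartiles 90.4% and 99.8%), against 73.4% over all autosomal peaks. The medians differed by 1.55 percentage points, and the difference of the bounds of their 95% intervals ran from 0.25 to 2.95. With domains within 100000 bases of each other counted once, by their mean cover, the medians were 98.1% with and 97.4% without H3K4me3, and the difference was 0.74 points (-1.04 to 2.78), an interval that takes in 0. Here a run counted as with H3K4me3 if any of its domains had it. Domains without it were thus averaged into that class in the 38 runs that held both. Of the domains with H3K4me3, 141 of 160 were covered to at least 90%, which is 88.1% (82.1 to 92.7), and of those without it 259 of 343, which is 75.5% (70.6 to 79.97). Over all autosomal GFP H3K27me3 peaks this share was 36.1%. Among peaks narrower than 8000 bases it was 61.5% (59.6 to 63.3) with H3K4me3 and 33.1% (32.6 to 33.7) without. The order of the classes was thus the same in narrow peaks. The wider gap pools peaks of all narrow widths, over which the share with H3K4me3 changes. Between 6000 and 8000 bases alone it was 80.1% (73.2 to 85.9) with H3K4me3 and 69.4% (65.2 to 73.3) without.

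**Figure D2:**
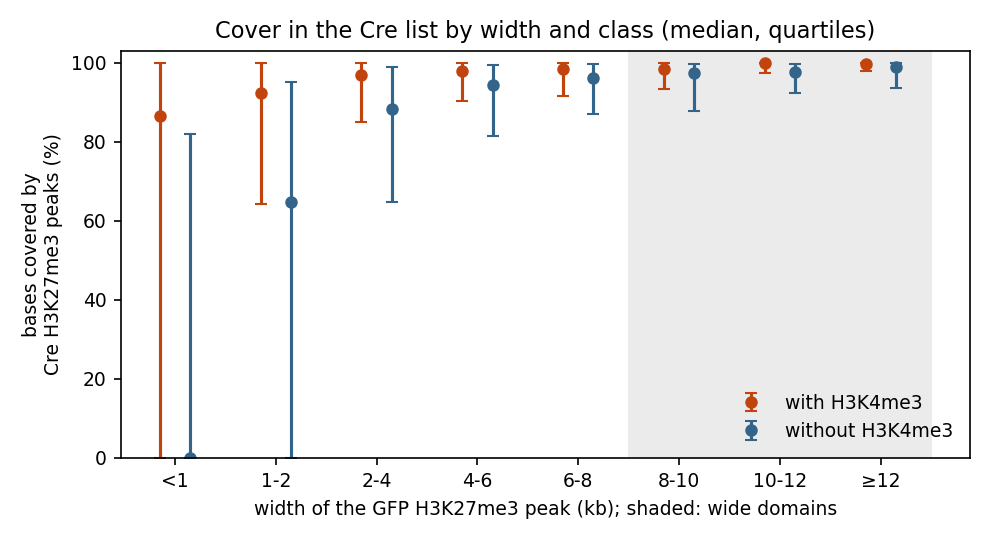
Share of the bases of GFP H3K27me3 peaks that lay under Cre H3K27me3 peaks, by width of the GFP peak, for peaks with and without a GFP H3K4me3 peak. Points are medians and bars quartiles over peaks. The classes lie far apart below 2 kb of width, at 86.6% and 0% under 1000 bases, and close together in the shaded wide domains, at 99.6% and 98.96% from 12000 bases up.

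Within width bins the class with H3K4me3 stayed higher. The share covered to at least 90% was 83.1% with H3K4me3 and 71.1% without between 8000 and 10000 bases, 90.2% and 78.4% between 10000 and 12000 bases, and 93.75% and 82.7% at 12000 bases and more, with intervals that overlapped in each bin. Score differed between the classes as well, so the shares were also taken within 3 score groups of nearly equal size. Among the domains with scores below 1272 they were 79.4% (62.1 to 91.3) with H3K4me3 and 67.9% (59.3 to 75.7) without. Between 1272 and 2078 they were 82% (68.6 to 91.4) and 69.2% (60.0 to 77.4). Above 2078 they were 96.1% (88.9 to 99.2) and 94.6% (87.8 to 98.2). Score still differed within these groups. Its median with and without H3K4me3 was 1077 and 830 in the lowest group and 1723 and 1680 in the middle one. In the highest group it was 3100 and 2635. The rank correlation of cover was 0.34 with score and 0.13 with width over the 503 domains, which share the same pair of libraries. The part of score in the difference between the classes was not tested beyond these groups.

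The bases without Cre cover, 277557 in all, lay mostly at the ends of the domains. Leaving aside the domain with no Cre peak, 59.4% of them were at an end and 40.6% inside, between Cre peaks. In the class with H3K4me3 71.3% were at the ends, and in the class without it 56.0%. A gap between Cre peaks was found inside 57 of the 160 domains with H3K4me3, which is 35.6% (28.2 to 43.6), and inside 176 of the 343 without, which is 51.3% (45.9 to 56.7). The gaps were short, with a median of 126 bases in the class with H3K4me3 and 183 bases in the class without it. In the class with H3K4me3, 98.2% of the bases under GFP H3K4me3 peaks were covered by Cre H3K27me3, and 95.9% of the other bases. Of the 75 gaps in this class, 8 overlapped a Cre and 11 a GFP H3K4me3 peak.

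Cre peaks also reached past the ends. They extended beyond at least 1 end in 83.75% of the domains with H3K4me3 and 78.1% of those without. The Cre peaks that touch the domains held 636.6 kb outside them, and 74.4% of that lay under other GFP H3K27me3 peaks, which leaves 163.2 kb under no GFP peak. Where 1 Cre peak matched 1 domain and no other GFP peak, in 162 domains, the median ratio of Cre to GFP width was 1.00 (quartiles 0.966 and 1.03), with 81 Cre peaks wider and 81 narrower than their GFP counterpart.

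**Figure D3:**
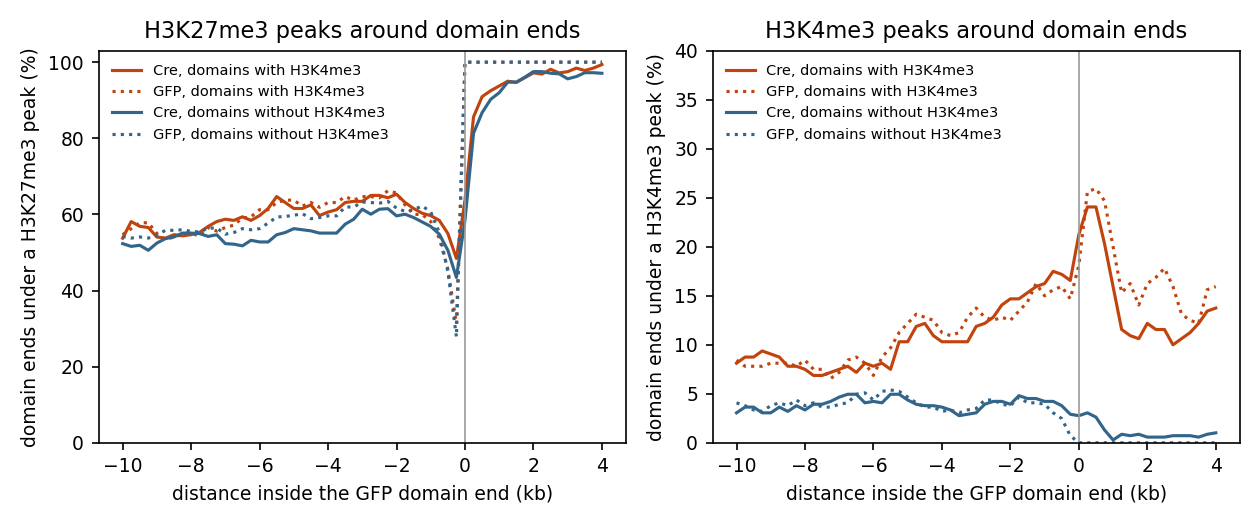
Share of domain ends that lay under an H3K27me3 peak (left) or an H3K4me3 peak (right), by distance from the end of the GFP domain, with both ends pooled and positive distances inside the domain. Solid lines are Cre and dotted lines GFP peaks. Cre H3K27me3 cover goes up from 63.75% at the end to 93.75% at 1000 bases inside in domains with H3K4me3, and from 58.5% to 91.98% in those without.

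The same domain was often cut differently in the lists. A domain corresponded to 1 Cre peak in 102 of the 160 domains with H3K4me3, which is 63.75% (55.8 to 71.2), and in 167 of the 343 without, which is 48.7% (43.3 to 54.1), where 59.4% of all autosomal peaks had 1. Of all autosomal peaks only 68.3% overlapped any Cre peak, which lowers that share. Among peaks narrower than 8000 bases, 80.2% with H3K4me3 and 57.7% without had 1 Cre peak. At least 3 Cre peaks fell on 13 domains with H3K4me3, 8.13% (4.40 to 13.5), and on 63 without, 18.4% (14.4 to 22.9), where 0.845% of all autosomal peaks had as many. A Cre peak of at least 8000 bases overlapped 129 of the domains with H3K4me3, 80.6% (73.6 to 86.4), and 217 of those without, 63.3% (57.9 to 68.4), where 2.97% of all autosomal peaks were overlapped by one. For the 157 domains with no Cre peak of that width, the widest Cre peak had a median of 5956.5 bases, 137 of them held more than 1 Cre peak, and the median cover was still 89.7%.

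The rule applied to the Cre list gave 544 wide domains among 29328 autosomal H3K27me3 peaks, 1.85% of that list, of which 214 overlapped a Cre H3K4me3 peak and 330 did not, where 9.96% of all autosomal Cre peaks overlapped one. All 544 overlapped a GFP H3K27me3 peak, where 77.3% of all autosomal Cre peaks did, and 542 had at least 50% of their bases covered by GFP peaks, where 69.5% of all did. A wide domain of the other list was overlapped by 340 of the 544 Cre domains, 62.5% (58.3 to 66.6), where 2.80% of all autosomal Cre peaks did, and by 346 of the 503 GFP domains, 68.8% (64.5 to 72.8). Cre domains were more numerous at each width. At 15000 bases or more there were 67 in Cre and 42 in GFP cells, 0.228% and 0.123% of the autosomal peaks. At 20000 bases or more there were 20 and 9, 0.0682% and 0.0264%. With peaks joined across gaps of up to 1000 bases, the order of the counts turned round. Regions of at least 8000 bases then numbered 1654 of 18941 in Cre and 1714 of 21988 in GFP cells. As a share of the joined regions, Cre cells still stood higher. In Cre cells too, cover of at least 90%, here by GFP peaks, was more frequent with H3K4me3, 93.5% (89.3 to 96.4) of 214, than without it, 79.7% (74.9 to 83.9) of 330, where 40.4% of all autosomal Cre peaks reached it. Many of these are the same regions as the GFP domains, so they are no separate set.

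The domains with the least cover were few. At chr8:19893999-19902880, a domain with a low H3K27me3 score of 145.6 overlapped no Cre H3K27me3 peak. It overlapped a GFP H3K4me3 peak with a score of 3027 and an H3Ac peak with a score of 1871. Both libraries had H3K4me3 and H3Ac there. Only 1089 of the 4610 bases of the GFP H3K4me3 peak lay in the domain, and the midpoint of this peak lay outside it. The median of the strongest H3K4me3 score per domain of the class was 199.3. At chr11:108832527-108840528, a domain with a score of 957.8, whose width of 8002 bases is the smallest of all members, had 28.2% of its bases under 1 Cre peak of 2254 bases. At chr11:83506207-83515817 the cover was 56.6%, in 3 Cre peaks. Without H3K4me3, the lowest cover was 57.7% at chr6:99958428-99966994 and 57.8% at chr17:25498220-25507927, where 4 Cre peaks of at most 2045 bases lay in a domain of 9708 bases. The 4 domains after the one on chromosome 8 with the least cover in the class with H3K4me3 had GFP H3K4me3 scores between 56.5 and 84.7, and none of the 4 overlapped an H3K4me3 peak in Cre cells.

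By H3K27me3 score, the first domain with H3K4me3 lay at chr5:106888086-106907003, with a score of 3208 and 98.6% cover, and the second at chr2:9804309-9815446, with 3151 and full cover. The first without it lay at chr6:51129617-51150023, with 3227, 20407 bases and full cover by a Cre peak of 22477 bases, and the second at chr1:78130012-78142875, with 3224 and 97.3% cover. The fourth without H3K4me3, at chr1:186538567-186549403, scored 3150 and had 86.3% cover, below the lower quartile of the class. Scores gathered at 3100, which was the upper quartile of the class with H3K4me3 and its median in the highest score group. Whether the order among the highest scores follows the strength of the mark is not known.

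The H3K4me3 peaks of the domains had low scores. There were 230 of them, 1.00% of the 22967 autosomal GFP H3K4me3 peaks, and 109 of the 160 domains held 1, 37 held 2 and 14 held 3 to 5. They took up a median of 13.4% of the domain (quartiles 8.43% and 19.5%). Their median score was 151.3 (quartiles 76.5 and 318.5), against 574.2 (quartiles 134.9 and 2374) for all autosomal H3K4me3 peaks, and 141.6 for those over narrower H3K27me3 peaks. Of the 232 overlaps, 58 reached past an end of the domain, 25% (19.6 to 31.1). The midpoint lay nearer to the centre of the domain than to an end in 90, nearer to an end in 126 and beyond the end in 16. The 174 peaks that lay wholly inside were split evenly by count, with 89 nearer to the centre and 85 nearer to an end. A peak wholly inside cannot have its midpoint right at an end, so this split does not show even placement. Whether peaks favour the ends was not tested. At 500 bases inside a domain end 25.9% of the ends were under a GFP H3K4me3 peak, at 2500 bases inside 17.8%, at 3500 bases 12.2% and at 4000 bases 15.9%.

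The class of a domain was mostly the same by the Cre H3K4me3 list. Of the 160 domains with H3K4me3, 123 overlapped a Cre H3K4me3 peak, 76.9% (69.6 to 83.2). Of the 343 without it 41 did, 11.95% (8.72 to 15.9). Over all autosomal GFP H3K27me3 peaks, which pool both classes, the share was 8.31%. Narrower H3K27me3 peaks stood at 71.8% (70.1 to 73.5) with GFP H3K4me3 and 2.36% (2.20 to 2.54) without it. The part of width in the difference between these peaks and the domains was not tested. Per peak, 161 of the 230 H3K4me3 peaks overlapped a Cre H3K4me3 peak, 70% (63.6 to 75.8), where 89.4% of all autosomal H3K4me3 peaks did and 71.9% (70.1 to 73.6) of those over narrower H3K27me3 peaks. The peaks found in the GFP list only were weaker, with a median score of 75.4 for 69 of them, against 227.6 for the 161 found in both. The domains with H3K4me3 in the Cre list only had a median Cre H3K4me3 score of 78.8 (quartiles 64.1 and 106.8), where the lowest score in that list is 50.02.

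A few of these peaks were stronger. The highest Cre H3K4me3 score in a domain without GFP H3K4me3 was 3100, at chr17:36262305-36276066, a domain of 13762 bases with H3Ac in both libraries and 83.8% Cre H3K27me3 cover. The widest Cre H3K4me3 peak that overlapped this domain spanned 7349 bases, most of them outside it. The nearest GFP H3K4me3 peak was 1416 bases from the domain. The next were at chr19:46211861-46222169, with a Cre score of 551.7 and a GFP H3K4me3 peak 11 bases outside the domain, and at chr11:96181805-96192851, with 537.7 and a GFP H3K4me3 peak 230 bases outside it. These overlaps were small, with 3.07% of the bases of the domain on chromosome 19 and 0.0272% of the one on chromosome 11 under Cre H3K4me3, against 14.1% of the one on chromosome 17. In the other direction, the strongest GFP H3K4me3 peak with none in the Cre domain scored 362.1, at chr17:26522416-26531452, where H3K27me3 cover was 99.6%. These regions were chosen after their values were seen.

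Cover in Cre cells also went with the Cre H3K4me3 list. Domains with H3K4me3 in both lists were covered to at least 90% in 93.5% of cases (87.6 to 97.2) of 123. Domains with H3K4me3 in the GFP list only reached this in 70.3% (53.0 to 84.1) of 37. Domains with H3K4me3 in the Cre list only reached it in 82.9% (67.9 to 92.8) of 41, and domains with none in either list in 74.5% (69.2 to 79.3) of 302. The median GFP H3K27me3 score was 2174 with H3K4me3 in both lists, 1596 in the GFP list only, 1928 in the Cre list only and 1429 in neither, and its part in these shares was not tested.

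**Figure D4:**
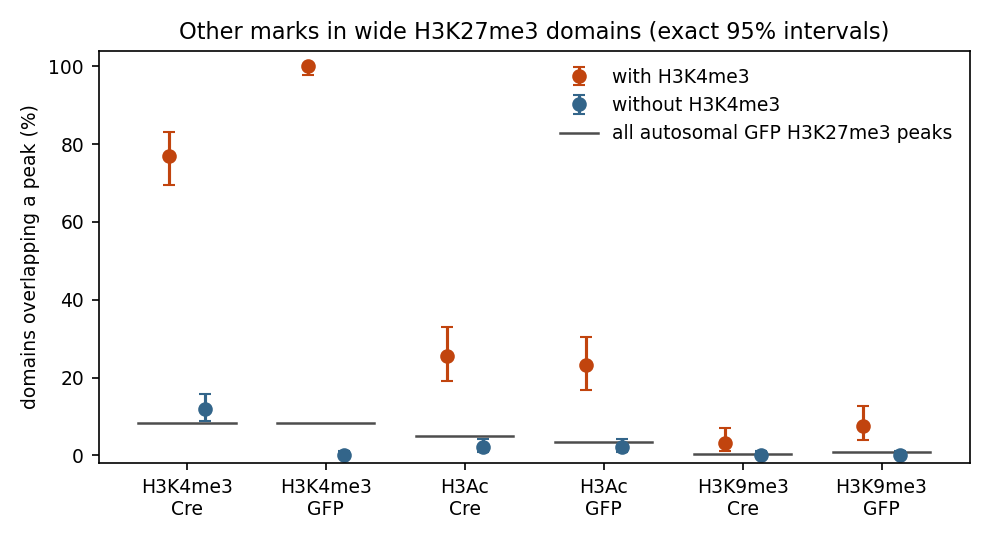
Share of the wide domains that overlapped a peak of H3K4me3, H3Ac or H3K9me3 in Cre and in GFP cells, for domains with and without GFP H3K4me3, with exact 95% intervals. Grey lines give the share among all autosomal GFP H3K27me3 peaks. The GFP H3K4me3 column is 100% and 0% by the rule, and H3Ac stands at 25.6% and 2.04% in the Cre list.

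Acetylation was found at few domains, and most of those had H3K4me3, 41 of 48 in Cre and 37 of 44 in GFP cells. In the class with H3K4me3, 41 of 160 domains overlapped H3Ac in Cre cells, 25.6% (19.1 to 33.1), and 37 in GFP cells, 23.1% (16.8 to 30.4). In the class without it 7 of 343 did in each, 2.04% (0.824 to 4.16). Over all autosomal GFP H3K27me3 peaks, which pool both classes, the shares were 5.00% in Cre and 3.37% in GFP cells. Narrower H3K27me3 peaks with H3K4me3 stood higher, at 39.5% (37.6 to 41.4) in Cre and 29.7% (28.0 to 31.4) in GFP cells. Narrower peaks without H3K4me3 stood at 1.91% (1.76 to 2.07) in Cre and 0.982% (0.875 to 1.10) in GFP cells. These intervals overlapped those of the wide domains, except for the class with H3K4me3 in Cre cells. Acetylation of the H3K4me3 peaks themselves was far below that of H3K4me3 peaks in general: 23.9% (18.6 to 29.96) of the 230 overlapped H3Ac in Cre and 21.7% (16.6 to 27.6) in GFP cells, where 82.5% and 80.5% of all autosomal H3K4me3 peaks did. H3K4me3 peaks over narrower H3K27me3 peaks stood at 40.1% (38.3 to 42.1) in Cre and 30.9% (29.2 to 32.7) in GFP cells. None of the 37 domains that had H3K4me3 in the GFP list only overlapped H3Ac in either library. A set of 37 is too small to tell 0 from the shares over all peaks, which pool both classes. Of the 123 domains with H3K4me3 in both lists, 41 overlapped H3Ac in Cre and 37 in GFP cells. The median of the strongest GFP H3K4me3 score was 81.2 in the domains with H3K4me3 in the GFP list only, against 237.7 in these 123. The part of this score in the H3Ac overlap was not tested.

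The nearest GFP H3Ac peak was a median of 17472.5 bases away in the class with H3K4me3 and 28106 bases in the class without it. Over all autosomal GFP H3K27me3 peaks these distances were 9455 and 22990 bases. The class without H3K4me3 was a median of 13797 bases from the nearest GFP H3K4me3 peak, and all autosomal H3K27me3 peaks without H3K4me3 were 20962 bases from it. Of the 343 domains, 28 had one within 1000 bases, 8.16% (5.49 to 11.6), where 5.13% of all such peaks did, and 89 within 5000 bases, 25.9% (21.4 to 30.9), where 18.5% did.

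A small set of domains was acetylated over much of its length, in a few places of the genome. With a limit of 30% of the bases under H3Ac in either library, set after the values were seen, there were 13 such domains, 11 of them with H3K4me3. Of these, 5 lay within chr15:102786886-102862661 and 3 within chr11:96133982-96192851, and the others were single domains on chromosomes 1, 2, 5, 6 and 17. The most acetylated, at chr15:102830021-102841822, was under H3Ac along 100% of its bases in Cre and 99.98% in GFP cells, under H3K4me3 along 64.6% and 62.2%, and under Cre H3K27me3 along 96.6%. At chr6:52211610-52220778, H3Ac took up 80.7% in Cre and 68.6% in GFP cells and H3K4me3 61.8% and 61.0%. The 3 domains on chromosome 11 had less acetylation in Cre than in GFP cells: 42.4% and 71.3% from 96148402 to 96160547, 9.81% and 44.3% from 96133982 to 96144235, and 9.29% and 45.5% from 96181805 to 96192851. Cre H3K27me3 cover of these 3 was 99.2%, 100% and 100%. At chr17:36262305-36276066 the order was the opposite, 36.3% in Cre and 4.59% in GFP cells. Each of these is a comparison of 1 library with 1 library, and the Cre H3Ac list is the shorter one, with 74.5 Mb covered against 88.1 Mb in GFP cells. The H3K27me3 scores of the 13 lay between 334.1 and 2562, with a median of 1820.

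H3K9me3 peaks were found in the class with H3K4me3, while 0 of 343 domains without it overlapped one in either library. A count of 0 allows a share of up to 0.875% by the limit of 3 counts, and the exact 95% interval reaches 1.07%. Narrower peaks without H3K4me3 stood at 0.0389% in Cre and 0.152% in GFP cells, so that 0 among 343 is not distinguishable from them. In the class with H3K4me3, 5 of 160 domains overlapped H3K9me3 in Cre cells, 3.13% (1.02 to 7.14), and 12 in GFP cells, 7.5% (3.94 to 12.7), and 4 did in both. Over all autosomal GFP H3K27me3 peaks the shares were 0.232% and 0.757%. Peaks narrower than 8000 bases with H3K4me3 stood at 2.30% (1.77 to 2.94) in Cre and 7.37% (6.42 to 8.42) in GFP cells, and these intervals overlapped those of the wide domains. In each of the 12 domains the GFP H3K9me3 peak overlapped a GFP H3K4me3 peak. The highest H3K9me3 scores were 253.95 at chr17:45476088-45486290, 237.6 at chr19:45237245-45249111 and 237.1 at chr11:96071441-96079994, and the bases under H3K9me3 were 21.5%, 11.8% and 26.5% of these domains.

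The domains were spread unevenly over the autosomes. Chromosome 19 held the most relative to its H3K27me3 peaks, 35.2 per 1000, and chromosome 16 the fewest, 3.65 per 1000, against 14.8 over all autosomes. Chromosomes 2 and 11 held 56 each, chromosome 19 held 41, chromosome 5 held 40 and chromosome 17 held 39, and these 5 had 46.1% of the domains and 33.8% of all autosomal H3K27me3 peaks. The share with H3K4me3 was highest on chromosome 13, 10 of 16, and lowest on chromosome 18, 1 of 10, with 4 of 34 on chromosome 4. Median cover by Cre peaks ranged over the autosomes between 94.3% on chromosome 8 and 100% on chromosome 14.

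**Figure D5:**
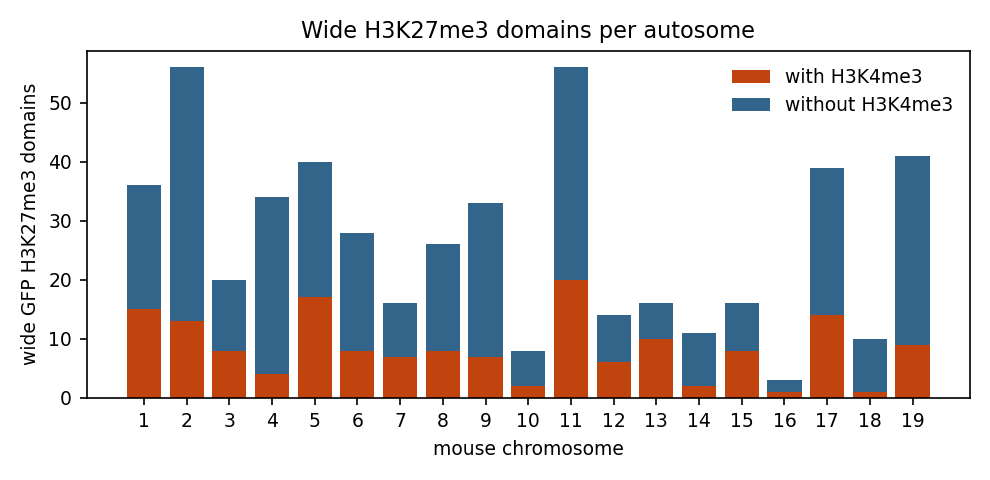
Number of wide GFP H3K27me3 domains on each autosome, with the class with H3K4me3 at the base of the bar and the class without it above. Chromosomes 2 and 11 hold 56 domains each and chromosome 16 holds 3.

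Over 50% of the domains had another within 100000 bases. With domains counted as 1 run where they lie within 100000 bases of each other, there were 315 runs, and 280 of the 503 domains lay in 92 runs of at least 2, 56.25% (48.2 to 64.1) of the domains with H3K4me3 and 55.4% (49.96 to 60.7) of those without. Of the 92 runs, 38 held both classes, 13 only domains with H3K4me3 and 41 only domains without. The largest lay at chr11:96023454-96380753, with 11 domains, 6 of them with H3K4me3, that sum to 139032 bases over 357.3 kb and had a median Cre cover of 100%. The next held 9 domains each. At chr15:102731699-102957049, 8 of the 9 had H3K4me3, and the median cover was 99.97%. At chr19:44572893-44910056, none of the 9 had, and the median cover was 99.5%. The region chr1:74884848-75008480 held 7 domains and chr6:83565235-83675290 held 6, where in the region on chromosome 6 the lowest cover was 73.8%.

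Another GFP H3K27me3 peak lay within 1000 bases of 85% (78.5 to 90.1) of the domains with H3K4me3 and 83.7% (79.3 to 87.4) of those without, where 56.3% of all autosomal peaks had one so near. Joined across such gaps, the 503 domains belonged to 439 regions with a median width of 17632 bases. The widest spanned 101229 bases at chr7:86663509-86764737, 99.6% of them under Cre peaks joined the same way, and the second 83653 bases at chr11:96123003-96206655, with 4 domains and full cover. Of 190 gaps of at most 1000 bases next to domains with H3K4me3, 50 overlapped an H3K4me3 peak in Cre and 44 in GFP cells, which is 26.3% (20.2 to 33.2) and 23.2% (17.4 to 29.8). Next to domains without H3K4me3 the shares of 419 gaps were 6.21% (4.09 to 8.96) in Cre and 2.15% (0.987 to 4.04) in GFP cells, where the rule leaves out domains that an H3K4me3 peak reaches into.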

How the data were processed

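ChIP-seq peak lists of 8 samples were used, 1 per mark and condition, of 18 in the series. The other 10 samples were not analysed here. The submitters' processing notes name build NCBIM37 and, among other tools, MACS 1.4.1, BWA, bedtools 2.16.2 and SAMtools 0.1.18, without saying which made what. Each list holds 1 library, so replicates were not pooled. The score of each peak is the authors' deposited value. It has no stated unit, starts near 50 in every list and was used within a list only. Read depth and the control library behind each list are not given in those notes or the labels.

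Overlap means at least 1 shared base, and cover is the share of a domain's bases under peaks of another list. The overlap code was checked on simulated data. Python 3.11.15, NumPy 2.4.6, pandas 2.3.3, SciPy 1.17.1 and matplotlib 3.10.9 were used. The domains named are, per class, among the 5 widest, the 5 with the lowest cover and the 5 with the highest score, then the 5 runs with the most domains. Acetylated, H3K9me3-marked, class-changing, joined and low-scoring domains were added after their values were seen. Members, classes and comparisons were chosen with earlier results of these data known.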

Additional observations from a re-analysis of the deposited data

Results flagged for a closer look

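Chromosome X lay outside the comparisons, which used autosomes. Its H3K27me3 peaks of at least 8000 bases numbered 45 of 7029 in the Cre list and 8 of 1967 in the GFP list, and the widest spanned 19629 bases in Cre and 17412 in GFP cells. The whole X list was thus longer in Cre cells, while on the autosomes the Cre list was the shorter one, with 29328 peaks against 34064. Whether the Cre and GFP cells came from the same embryos is not given, so embryo source and condition cannot be told apart here. With 1 library per condition this difference was not tested.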

How the results depend on the processing

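Of 136 values under 18 alternative settings, 116 were medians, shares and differences, and 20 were counts. Of the 116, 91 stayed within the interval of the value reported, which is a 95% interval for medians and shares. For a difference it is the difference of the bounds of the 95% intervals of both medians. That is wider than a 95% interval of the difference itself. Of the counts, 7 stayed within 1.5 times the value reported. The other 38 moved. The difference in median cover, with minus without H3K4me3, was above 0 in 16 of 16 alternatives (0.42 to 5.57 percentage points), but its interval took in 0 in 7 of the 16: an H3K4me3 score of at least 100, widths of 8000 to 10000 and of at least 12000 bases, each of the 3 score groups, and runs counted once. The difference in median width was above 0 in 4 of 4 (421.5 to 554.9 bases), with an interval that took in 0 in each, as it did for the value reported (-387 to 1443). A minimum of 6000 bases gave 362 Cre domains with and 842 without H3K4me3, and 326 and 875 GFP domains, with 98.5% of those 875 covered to at least 50%. A minimum of 10000 bases gave 118 and 160 Cre and 89 and 163 GFP domains, with 100% of those with H3K4me3 covered to at least 50%. Joining peaks within 1000 bases gave 622 and 1032 Cre and 647 and 1067 GFP regions. This turned round the order of the counts with H3K4me3 in Cre (214) and GFP (160) cells. The joined lists held 18941 Cre and 21988 GFP regions in all. Median cover was then 95.5% with and 89.9% without H3K4me3, a difference of 5.57 points. Of those without, 95.4% were covered to at least 50%. With only the top-scoring Cre peaks that make up 50% of the covered length, median cover without H3K4me3 was 96.5%, the difference 2.97 points, and cover of at least 50% was reached by 95% with and 93.3% without. A limit of 80% cover was reached by 93.6% without H3K4me3. Median cover with H3K4me3 was 98.3% between 8000 and 10000 bases and 99.8% between 10000 and 12000 bases, and 98.96% without it at 12000 bases or more, with 100% of domains with H3K4me3 covered to at least 50% in each of the wider bins. In the lowest score group median cover was 98.2% with and 95.9% without, and 94.1% with H3K4me3 were covered to at least 50%. In the middle group it was 96.5% without and that share 100%, and in the highest group 99.8% with and 99.4% without and 100%. With each run within 100000 bases counted once, 121 sets with and 194 without H3K4me3 remained, median cover was 98.1% with and 97.4% without it, and the difference was 0.74 points (-1.04 to 2.78). A run that held both classes was counted as with H3K4me3, so this setting also changed the class of some domains. The cause of each move was not tested, beyond the fewer or more domains each setting holds. Leaving out the domain with no Cre peak, an alternative added after seeing the data, gave a difference of 1.62 points. No paired analysis was possible because each mark has 1 library per condition. Unknown read depth and embryo source limit every comparison of Cre with GFP cells.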

Other observations

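Width did not guarantee a high score. The lowest H3K27me3 score among the wide domains was 117.9, below the median of 132.1 over all autosomal peaks, in a domain without H3K4me3 at chr4:41534259-41543081. Cre peaks covered 88.8% of it, and the strongest of them scored 1011 in the Cre list. The domain at chr5:33873059-33889426 scored 230.1 over 16368 bases without H3K4me3 and was covered to 99.3%. The domain at chr15:102845520-102862661, which carries H3K4me3 and H3Ac in both libraries, scored 334.1 over 17142 bases and was covered whole. These domains were chosen after their values were seen, and scores of different lists are not on a shared scale.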
